A study of Mus musculus with 24 samples.

Results

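A set of 8 genes of the myelin sheath were followed across the cell types of the mouse ventral hippocampus and between a pair of inbred strains. They were Mbp, Mog, Mag, Mobp, Cnp, Mal, Ermn and Opalin, taken by name from the 33902 gene symbols of a table of single-nucleus RNA-seq counts, and all 8 were present. Male C57BL/6J (B6) and DBA/2J (D2) mice from the Jackson Laboratory, 10 to 16 weeks old, gave snap-frozen ventral hippocampus, with about 2 animals pooled in each replicate. Nuclei for RNA-seq were sorted on the neuronal nuclear antigen NeuN, so that the share of any glial type in an RNA-seq library was set in part by the sort. Each strain had 2 libraries, and the table held the summed counts of 17 cell types in each library. The 14 types used here were 8 excitatory types, the inhibitory type Inh-MGE, oligodendrocytes (ODC), oligodendrocyte precursors (OPC), astrocytes (Astro), microglia (MGC) and vascular and leptomeningeal cells (VLMC). Chromatin accessibility from 2 single-nucleus ATAC-seq libraries per strain, whose nuclei were not sorted on NeuN, was read at the starts of the same genes.

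Oligodendrocytes wrap axons in myelin, a stack of membrane held together by a small set of abundant proteins, and it speeds the conduction of impulses. Mbp glues the cytoplasmic faces of the membrane to each other, Mobp is a further small basic protein of the compact sheath, and Mal is a proteolipid of lipid-rich membrane. Cnp, an enzyme of 2',3'-cyclic nucleotides, keeps cytoplasmic channels open within the sheath, and Ermn is a cytoskeletal protein of its outer and inner tongues. Mag lies on the membrane next to the axon, Mog on the outermost surface, and Opalin is a membrane glycoprotein of mature oligodendrocytes. RNA of such abundant transcripts also leaks from broken cells during the isolation of nuclei and can be captured in droplets that hold other nuclei.

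In oligodendrocytes the libraries held 844 and 972 nuclei in B6 and 535 and 510 in D2, with 1945451, 2581231, 1389297 and 1483011 counts. Oligodendrocytes made up 9.69% and 12.4% of the nuclei in B6 and 6.68% and 8.08% in D2. The summed neurons of 9 types held 43538419 and 44377669 counts in B6 and 41673233 and 32762464 in D2. Of 12 oligodendrocyte markers, 8 of which are the genes described here, 11 had their highest mean level in oligodendrocytes, and Sox10, a factor of the whole lineage, was highest in the precursors. The strains were counted with lists of symbols that differed, since 963 symbols had counts in B6 alone and 8194 in D2 alone, but all 8 genes had counts in both.

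All 8 genes were highest in oligodendrocytes by a wide margin, and for each of them the lowest oligodendrocyte library exceeded the highest library of any other type. Levels are given in counts per 1000000 (CPM) of the counts of that cell type in that library. They were compared between cell types but not between genes, since the files gave no length correction. Because the cell types had been clustered on the same nuclei and counts, these levels are a description with no test.

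Mbp reached 4378 and 4418 CPM in B6 oligodendrocytes and 4407 and 4462 CPM in those of D2. Its next type was the precursors, with a mean of 160 CPM, a 27.5-fold lower level. Granule cells of the dentate gyrus (Exc-DG) came next with a mean of 119 CPM, ranging from 101 to 134 over the 4 libraries, and overlapped the precursors. The lowest type was Inh-MGE, with a mean of 41.3 CPM.

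For the other genes the gap to the second type was 75.5-fold for Mog, 67.1-fold for Ermn, 52.6-fold for Opalin, 37.1-fold for Mobp, 31.0-fold for Mag, 13.5-fold for Mal and 5.59-fold for Cnp. The second type was microglia for Mog, Mag, Mobp and Cnp, and vascular and leptomeningeal cells for Mal, Ermn and Opalin. In all 8 genes the next type overlapped the one after it in its range of libraries, so the order just below oligodendrocytes was not resolved. Cnp had the smallest gap, with a mean of 213 CPM in oligodendrocytes, 38.0 in microglia and 28.5 in astrocytes.

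**Figure D1:**
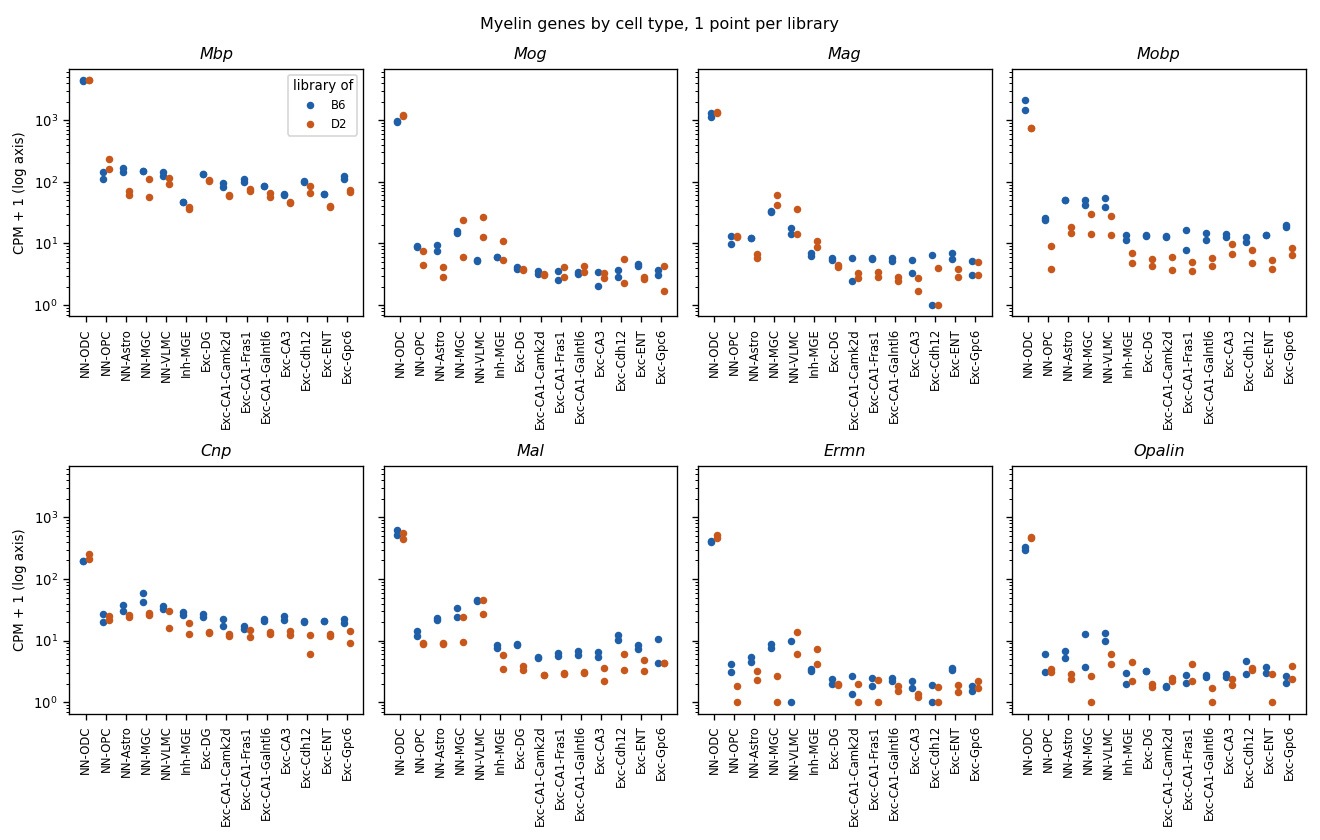
Level of each of the 8 myelin genes (CPM + 1, log axis) in the 14 cell types, with 1 point per library, B6 in blue and D2 in orange. In every panel the 4 oligodendrocyte points stand above all others, and Cnp and Mbp keep the highest floor in neurons.

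Across the 14 types, the genes whose mean profile was most like that of the 8 together were Mtmr2, Prr5l, Gm19500, Adipor2 and Qdpr, with Pearson's r from 0.992 down to 0.987, out of 9462 genes compared. Nkx6-2, a transcription factor of the lineage, and Gjb1, a connexin of myelin, followed at 0.984 and 0.981. Among the 8 themselves Mog ranked first and Mbp only 51st, at r = 0.950. These values are descriptions over 14 points that share libraries, and all of them rest on the single high point of oligodendrocytes.

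The counts of the 8 genes in neurons, where none of them is a known marker, were low but not equal. As a percentage of the oligodendrocyte level of the same library, the mean over 4 libraries was 0.269% for Mog, 0.275% for Ermn, 0.291% for Mag, 0.423% for Opalin, 0.667% for Mobp and 0.802% for Mal. It was 1.78% for Mbp and 8.28% for Cnp. The source of the counts in neurons was not tested.

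For Cnp the percentage was 10.9 and 11.4 in B6 and 6.03 and 4.75 in D2, so the strains did not overlap. For Mbp it was 2.04 and 2.12 in B6 and 1.52 and 1.45 in D2, again without overlap. Mal (1.01 and 1.22 in B6, 0.506 and 0.479 in D2), Opalin, Mag, Ermn and Mog did not overlap between strains either. Mobp overlapped, at 0.638 and 0.807 in B6 and 0.687 and 0.537 in D2. With 2 libraries against 2, an exact permutation test can give no p below 0.33, so gaps between strains are a description. Between genes, the libraries of Mog, at 0.328 and 0.262 in B6 and 0.236 and 0.250 in D2, overlapped those of Ermn and Mag. The order of these lowest 3 was thus not resolved. Counted per nucleus instead of in CPM, the percentages were higher for all 8 genes, for example 28.5% for Cnp and 0.908% for Mog, since a neuronal nucleus held more counts (8091 to 9842) than an oligodendrocyte nucleus (2305 to 2908).

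Mbp also stood apart from the other 7 genes in a way that depended on the type of neuron. In oligodendrocytes there were 0.750 to 0.913 Mbp counts for each count of the other 7 genes. In Exc-DG there were 2.32 to 3.93, on average 3.62 times the ratio in oligodendrocytes of the same library. In Inh-MGE the ratio was 0.699 to 0.875, 0.911 times that of oligodendrocytes, and in microglia and vascular cells it was 0.848 and 0.954 times. The precursors, at 1.26 to 3.66, were closer to the excitatory neurons, which ranged from 1.63 times the oligodendrocyte ratio in Exc-ENT to the value in Exc-DG. The 7 genes include Cnp, which had 202 counts in B6 Inh-MGE, where the 7 had 215 and 236 by library. In B6 oligodendrocytes Cnp had 881 counts and the 7 had 11355 and 12747. In B6 Exc-DG Cnp had 546 counts and the 7 had 561 and 658. Cnp thus lowers the ratio in Inh-MGE and in Exc-DG more than in oligodendrocytes. A ratio without Cnp was not computed, and the values given for each type hold only with Cnp included.

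Accessibility at the starts of the genes was read in oligodendrocytes and in the excitatory types. The authors had transferred these cell types from the RNA data, through accessibility counted over gene bodies and the bases upstream. The peaks read here can thus have had a part in the naming of the nuclei, and the values are a description. The 4 ATAC-seq libraries held 136 oligodendrocyte nuclei in all, with 311068 to 408524 counts per library, so single-library values in oligodendrocytes rest on few counts. Peaks within 1 kb of an annotated start (GENCODE vM21, GRCm38) were found for 7 genes, and none for Opalin. In the excitatory neurons, 23376 nuclei in all, 6 peaks of Mog, Mag, Mobp, Mal and Ermn lay at 0.209 to 1.89 CPM, while in oligodendrocytes they lay at 15.3 to 48.0 CPM over the 4 libraries pooled.

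The Cnp peak had the highest CPM of these in oligodendrocytes and was also open in neurons. Its peak was 1111 bases wide, against 206 for Mobp and 1259 for Mal, and held 126 oligodendrocyte counts, or 70.3 and 100.4 CPM in B6 and 102.9 and 91.5 CPM in D2. In excitatory neurons it was 8.46 and 8.17 CPM in B6 and 7.84 and 8.76 CPM in D2. The strains overlapped in both cell classes.

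Mbp was the only gene of the 7 with more accessibility in excitatory neurons than in oligodendrocytes at its peaks near a start. The gene has an upstream start, that of the longer golli unit, whose transcripts are known from neurons and immune cells as well as from the oligodendrocyte lineage. The peak there was 18.4 to 19.3 CPM over the 4 excitatory libraries and 6.43 to 15.3 CPM in oligodendrocytes, from 14 counts, with no overlap. Within the excitatory types it ranged from 13.9 CPM in Exc-CA3 to 26.7 in Exc-Gpc6, with Exc-DG at 23.1. At the downstream start, which serves the classic myelin protein, the only peak reaching into 1 kb was centred at -1056 bases from the start, with 2 counts in oligodendrocytes and 6.96 CPM in Exc-DG against 0.866 to 3.34 in the other excitatory types. No test was made on accessibility.

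Promoter windows, 250 bases before to 50 after the start, were at hand for 7 of the 8 genes (RefSeq, GRCm38.p6, which is the B6 reference). The 3 printed 5′ to 3′ are those of Mobp, whose level differed most between the strains in oligodendrocytes among the 8, of Cnp, which was open in neurons, and of Mog, which was not. Capitals mark the letters ACAAAG or their reverse complement CTTTGT, a core of the sites bound by SOX factors such as Sox10. The Mobp window is chr9:120149492-120149791 (+), that of Cnp is chr11:100574689-100574988 (+) and that of Mog is chr17:37023349-37023648 (-).
Mobp: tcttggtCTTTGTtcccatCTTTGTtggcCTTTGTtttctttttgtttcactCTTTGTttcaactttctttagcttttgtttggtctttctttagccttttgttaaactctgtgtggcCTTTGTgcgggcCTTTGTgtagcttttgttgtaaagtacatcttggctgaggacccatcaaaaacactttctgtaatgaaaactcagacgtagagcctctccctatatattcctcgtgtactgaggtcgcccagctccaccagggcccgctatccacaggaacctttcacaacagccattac
Cnp: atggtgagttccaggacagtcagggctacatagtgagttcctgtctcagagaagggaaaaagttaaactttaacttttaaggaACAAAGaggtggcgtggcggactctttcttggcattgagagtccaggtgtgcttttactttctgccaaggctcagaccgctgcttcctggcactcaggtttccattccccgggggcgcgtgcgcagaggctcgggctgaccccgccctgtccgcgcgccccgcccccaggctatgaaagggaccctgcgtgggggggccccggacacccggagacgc
Mog: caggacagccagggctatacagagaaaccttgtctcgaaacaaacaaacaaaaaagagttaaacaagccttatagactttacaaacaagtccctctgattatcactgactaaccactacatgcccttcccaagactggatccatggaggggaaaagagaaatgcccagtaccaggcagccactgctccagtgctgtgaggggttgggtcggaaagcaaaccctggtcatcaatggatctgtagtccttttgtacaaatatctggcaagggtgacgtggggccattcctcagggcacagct

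The Mobp window held 6 matches, all between 243 and 120 bases before the start, and it was the only 1 of 32851 promoter windows with 6 or more. At least 1 match was in 18.7% of all windows, at least 2 in 2.37%. Opalin held 2 matches, Cnp 1, the first Mag window 1, and Mog, Mal and Ermn none. These letters were chosen after the sequences had been seen, and a match is not a bound site. In the Mobp window 51 bases lay inside the peak, against all 300 in Cnp and 32 in Mog. Cnp also held the most CG pairs, 17, where the other windows of these genes held 3 to 8 and the median of all windows was 7.

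Between the strains, the question was whether the myelin genes differ in D2 against B6, first in the cells that make myelin. In oligodendrocytes 3 of the 8 genes were higher in D2 (Opalin, Mog and Ermn), 1 was lower (Mobp), and 4 did not pass the test (edgeR's quasi-likelihood test, Benjamini-Hochberg adjusted p under 0.05 over 11670 genes). Over all genes tested, 10.1% were called higher and 8.93% lower. Among symbols with counts in both strains, 11313 were tested, with 698 called higher and 904 lower. The median log2 fold change of the 8 was 0.29, beside 0.02 for all genes tested. With library totals in place of TMM scaling the calls over all genes were 952 higher and 1390 lower, instead of 1181 and 1042.

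Mobp reached 2095 and 1438 CPM in B6 but 744 and 745 CPM in D2. Both D2 libraries lay below both B6 libraries, which differed more from each other than the D2 libraries did. The log2 fold change of D2 against B6 was -1.15 (SE 0.13, adjusted p = 2.1e-07, edgeR), and it stayed between -1.42 and -0.84 and past the threshold under every alternative run. The gene lies on chromosome 9 from 120149707 to 120181484 (+, GRCm38), and its last 2447 bases overlap the noncoding gene Gm38642 on the same strand, where reads can be split.

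Opalin was 324 and 296 CPM in B6 and 453 and 487 CPM in D2, without overlap. Its log2 fold change was 0.70 (SE 0.12, adjusted p = 5.3e-05, edgeR). Mog was 917 and 962 CPM in B6 and 1158 and 1209 CPM in D2, also without overlap, and the fitted log2 fold change was 0.43 (SE 0.10, adjusted p = 0.0025, edgeR).

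Ermn was 396 and 416 CPM in B6 and 468 and 516 CPM in D2. The groups did not overlap, and the log2 fold change of 0.38 (SE 0.11, adjusted p = 0.020, edgeR) missed the threshold with DESeq2, at an adjusted p of 0.11, and with library totals in place of TMM scaling, at 0.084. Without the second D2 library, 1 of the 3 higher calls was left, that of Opalin.

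Mbp was at nearly the same level in every oligodendrocyte library, between 4378 and 4462 CPM, with a log2 fold change of 0.11 (SE 0.09, adjusted p = 0.45, edgeR). Mag was 1295 and 1125 CPM in B6 and 1346 and 1320 CPM in D2, and the fitted log2 fold change was 0.24 (SE 0.10, adjusted p = 0.12). Cnp was 197 and 193 CPM in B6 and 210 and 250 CPM in D2, which did not overlap, but its log2 fold change of 0.34 (SE 0.13, adjusted p = 0.072) did not pass. Mal was 612 and 508 CPM in B6 and 446 and 560 CPM in D2, with overlapping libraries and a log2 fold change of -0.05 (SE 0.13, adjusted p = 0.84).

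**Figure D2:**
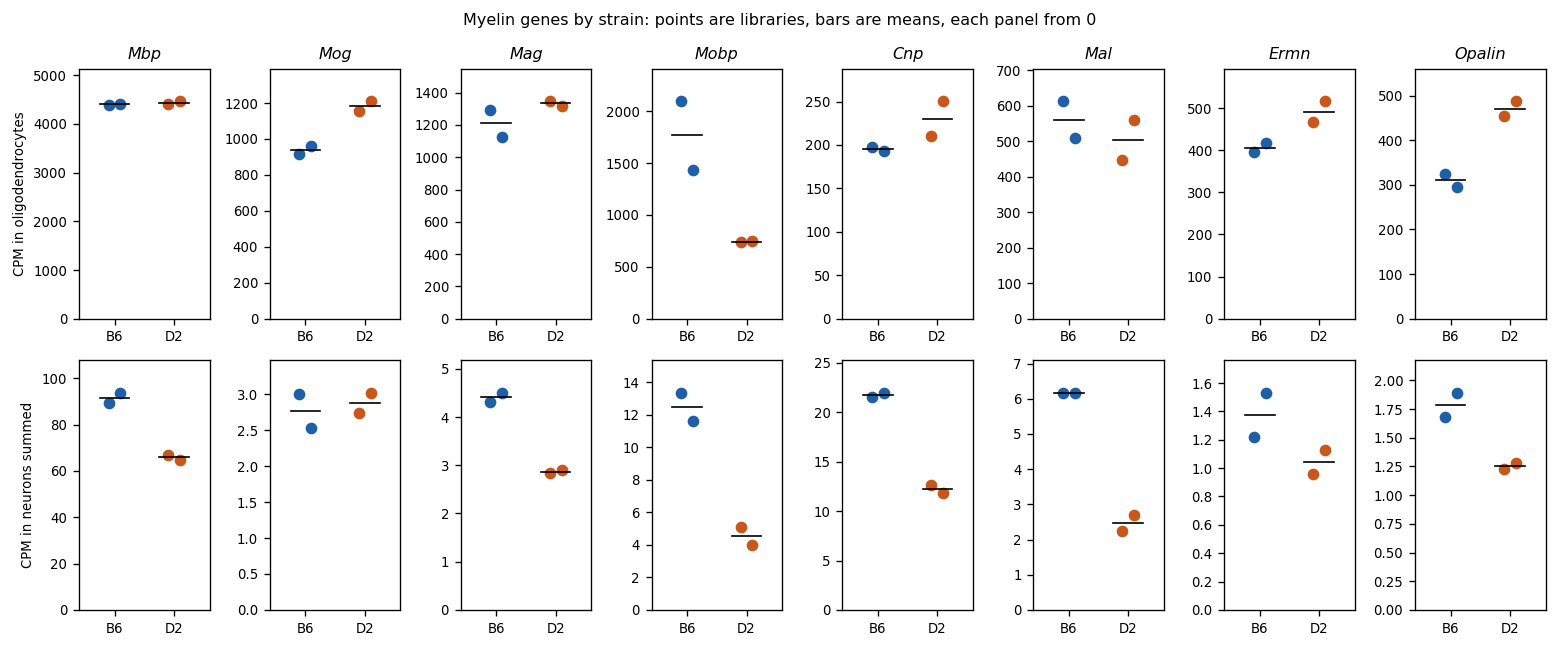
Level (CPM) of each gene in oligodendrocytes (upper row) and in the summed neurons (lower row), with 1 point per library, bars at the mean of 2 libraries and every axis from 0. Mobp is lower in D2 in both rows, while Opalin, Mog and Ermn are higher in D2 in the upper row.

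Other genes of the myelin program in the same cells gave a wider background. Of 19 other genes of the myelin membrane, its junctions and its contact with the axon that were tested, 4 were higher in D2, 2 lower and 13 not called, with a median log2 fold change of 0.04 (DESeq2 called 2 higher and 0 lower). The 4 were Pmp22, a membrane protein of compact myelin (0.93), Plekhb1 (0.88), Pllp, a proteolipid of the sheath (0.74), and Evi2a (0.55). The 2 lower genes were Nfasc, which holds the sheath to the axon beside the node (-0.45), and Sirt2, a deacetylase of the sheath (-0.44).

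Of 14 genes of myelin lipid synthesis, 5 were higher in D2 and 0 lower with edgeR, with a median of 0.34. None was lower at an unadjusted p under 0.05, and DESeq2 called 4 higher and 0 lower. They were Elovl7, an elongase of fatty acids (log2 fold change 1.01), Gal3st1, which makes sulfatide (0.62), Fdft1, of cholesterol synthesis (0.57), Ugt8a, which makes galactocerebroside (0.39), and Aspa, which frees acetate from N-acetylaspartate (0.39). Elovl7 was 161 and 202 CPM in B6 and 354 and 333 CPM in D2.

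Of 11 transcription factors of the lineage, 4 were higher and 0 lower with edgeR, with a median of 0.11. At an unadjusted p under 0.05, 1 was lower, and DESeq2 called 2 higher and 0 lower. Sox10, the SOX factor that drives the lineage, was 265 and 306 CPM in B6 and 435 and 469 CPM in D2, and the fitted log2 fold change was 0.76 (SE 0.12, adjusted p = 1.8e-05, edgeR). The other 3 were Nkx6-2 (0.90), Nkx2-2 (0.84) and Sox8 (0.71). Of 6 genes of newly formed oligodendrocytes, Enpp6 was higher (0.75) and 5 were not called, and with DESeq2 Enpp6 was not called either.

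Of 11 other genes of mature oligodendrocytes, 3 were higher and 2 lower, with a median of 0.30, and DESeq2 called 2 higher and 2 lower, without Enpp2. Ptgds, a prostaglandin D synthase, was 1767 and 1619 CPM in B6 and 509 and 769 CPM in D2, and the fitted log2 fold change was -1.31 (SE 0.14, adjusted p = 4.8e-08, edgeR). Il33, a cytokine of the nucleus, had a log2 fold change of -1.35, and the higher genes were Car2, a carbonic anhydrase (0.57), Trf, which carries iron (0.45), and Enpp2 (0.33).

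In the summed neurons most of the 8 genes were lower in D2. In all, 6 fell in D2 (Mobp, Mal, Cnp, Mag, Opalin and Mbp), none rose, and Ermn and Mog did not pass. Over 24193 genes tested, 16.9% were called lower, and the median log2 fold change was 0.09 for all genes and -0.62 for the 8. In either direction 11534 genes were called, of which 7454 were higher in D2. Among symbols with counts in both strains, 20344 were tested, with 3354 called higher and 3624 lower. In that fit 5 of the 8 genes were called lower.

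Mobp was 13.4 and 11.6 CPM in the B6 neurons and 5.11 and 3.998 CPM in the D2 neurons, a log2 fold change of -1.49 (SE 0.14, adjusted p = 3.0e-06, edgeR). Mal was 6.16 and 6.17 CPM in B6 and 2.26 and 2.69 CPM in D2 (-1.38, SE 0.15, adjusted p = 8.6e-06, edgeR). Cnp was 21.5 and 22.0 CPM in B6 and 12.7 and 11.9 CPM in D2 (-0.87, SE 0.09, adjusted p = 6.1e-06, edgeR). In these 3 genes the strains were far apart compared with the spread between libraries of a strain.

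Mbp was 89.5 and 93.8 CPM in B6 and 66.9 and 64.9 CPM in D2 (-0.52, SE 0.06, adjusted p = 3.1e-05, edgeR). Mag, at 4.32 and 4.51 CPM in B6 and 2.83 and 2.90 CPM in D2, had a log2 fold change of -0.67 (SE 0.15, adjusted p = 0.0024). Opalin was at 1.68 and 1.89 CPM in B6 and 1.22 and 1.28 CPM in D2, from 42 to 84 counts per library (-0.56, SE 0.20, adjusted p = 0.040), and did not pass with DESeq2, where the adjusted p was 0.30, or with the replicate block, where it was 0.055. In these 3 genes the libraries of the strains did not overlap, which with 2 libraries against 2 is a description. The share of all genes without overlap was not computed.

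Mog was level, at 3.01 and 2.52 CPM in B6 and 2.74 and 3.02 CPM in D2, with a log2 fold change of 0.01 (SE 0.17, adjusted p = 0.98, edgeR). Ermn was 1.22 and 1.53 CPM in B6 and 0.960 and 1.13 CPM in D2, with a log2 fold change of -0.45 (SE 0.23, adjusted p = 0.13).

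Of the other lists in neurons, 7 of 19 genes of the membrane, its junctions and axon contact were lower in D2 and 0 higher with edgeR, where DESeq2 called 1 lower and 0 higher. The lipid synthesis list, with 3 lower and 1 higher of 14, and the transcription factors, with 1 lower of 10, had medians of -0.04 and -0.12. Of 11 other genes of mature oligodendrocytes 4 were lower and 2 higher, Car2 (0.30) and Trf (0.31), which DESeq2 did not call, and the median was -0.32. Of 7 genes of newly formed oligodendrocytes 2 were lower and 1 higher, Itpr2 (0.34), also not called by DESeq2, and the median was -0.21. Of all 24193 genes tested in neurons, edgeR called 7454 higher and 16.9% lower. Among symbols with counts in both strains it called 3354 higher and 3624 lower.

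Oligodendrocytes were also a smaller part of the D2 libraries, as given above, and the 8 genes took 542 and 606 CPM of all counts used in B6 and 365 and 448 CPM in D2. The part of this in the lower neuronal counts was not tested. In sums over nuclei, fewer contributing nuclei and less RNA per nucleus cannot be told apart. In the neurons, 7 of the 12 oligodendrocyte markers, 6 of them among the genes described here, were lower in D2, with a summed level of 187 to 191 CPM in B6 and 119 to 122 CPM in D2. Of the other glia, 1 of 6 astrocyte markers (234 to 235 CPM in B6, 230 to 234 in D2), 4 of 5 microglial markers (266 to 277 and 206 to 210) and 4 of 7 precursor markers (790 to 795 and 600 to 612) were lower. Of 8 vascular and leptomeningeal markers 3 were higher, with a sum of 48.7 to 48.9 CPM in B6 and 79.3 to 91.7 CPM in D2. Beside these counts, 7454 of all 24193 genes tested in neurons were called higher and 16.9% lower. Among symbols with counts in both strains, 3354 were called higher and 3624 lower. No marker of these lists was at 0.

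The strain difference in oligodendrocytes was then tested against the strain difference in neurons of the same libraries. For 6 of the 8 genes it was higher in oligodendrocytes, while 1.9% of 22481 genes were called in that direction, and all 8 differences were positive. On the log2 scale they were 1.31 for Mal (SE 0.17, adjusted p = 8.3e-08, edgeR), 1.25 for Opalin (SE 0.22) and 1.21 for Cnp (SE 0.15). Mag followed with 0.91 (SE 0.18), Ermn with 0.82 (SE 0.23) and Mbp with 0.63 (SE 0.15). The Ermn call was the least stable, since it passed in 2 of the 8 fits run, and was lost with library totals (adjusted p = 0.088), with symbols counted in both strains (0.056) and on leaving out any 1 library (0.0997 to 0.56).

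Mog, at 0.42 (SE 0.19, adjusted p = 0.30), and Mobp, at 0.36 (SE 0.17, adjusted p = 0.33), did not pass, so that the lower Mobp of D2 was not shown to differ between the cell classes. Without the second B6 library 2 of the 6 calls were left, those of Cnp and Mal. Without the first D2 library Mobp passed instead of Ermn, with a difference of 0.60 (adjusted p = 0.043).

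**Figure D3:**
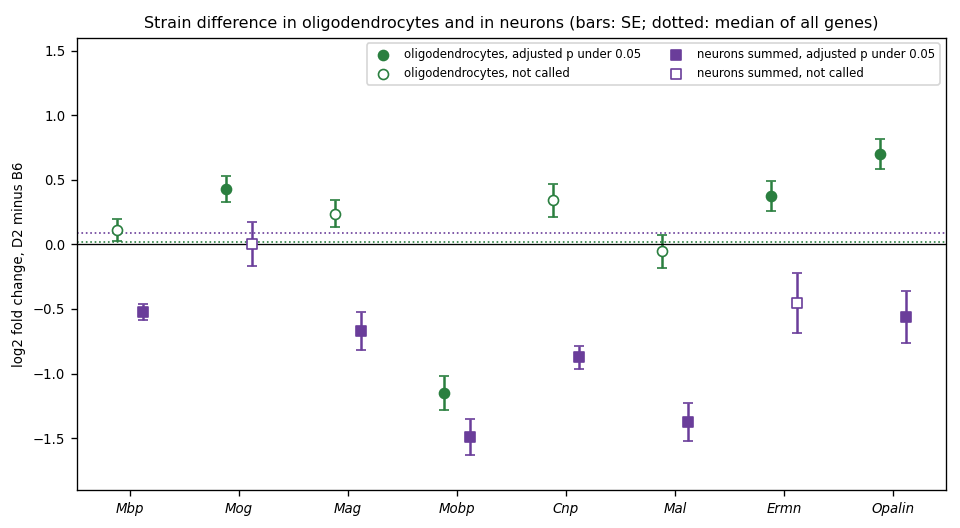
Log2 fold change of D2 against B6 for each gene in oligodendrocytes (green circles) and in the summed neurons (purple squares), with bars of 1 SE, filled symbols for adjusted p under 0.05 and dotted lines at the median of all genes. The neuronal value lies below the oligodendrocyte value in all 8 genes, and Mobp is low in both.

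Taken type by type, edgeR called genes of the 8 lower in D2 in every excitatory type but Exc-Cdh12, while Inh-MGE was mixed. DESeq2 called none in Exc-Cdh12, Exc-CA1-Camk2d or Inh-MGE. Of 104 pairs of a gene and a cell type outside oligodendrocytes, 72 passed the filter on low counts. A pair that passed through the high group alone had to differ, so the counts given are a description. Of the 72, 43 were called lower and 1 higher in D2 with edgeR, and 18 were called lower and 0 higher with DESeq2.

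Mobp was tested in 12 of the 13 types, was negative in all 12 and called lower in 10, with log2 fold changes from -2.14 to -0.77. Cnp was tested in 13, negative in 13 and called in 7, and Mal was tested in 11, negative in 11 and called in 7. Mbp was tested in 13 and called lower in 9, and Mog, tested in 8, was called lower only in astrocytes.

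The number of the 8 genes called lower was 6 in Exc-CA1-Galntl6 and in Exc-ENT, where 14.1% and 11.6% of all genes were called lower. It was 5 in Exc-DG (13.8%) and Exc-CA3 (12.9%), and 4 in Exc-CA1-Camk2d (7.4%) and Exc-CA1-Fras1 (12.3%). It was 3 in Exc-Gpc6 (8.79%), 2 in Inh-MGE (7.84%) and 0 in Exc-Cdh12 (3.41%), where 2 genes were tested. The Exc-Cdh12 columns were the smallest of the neurons, with 76 to 187 nuclei. Both genes tested there had negative log2 fold changes and an unadjusted p under 0.05 with edgeR (0.018 for Cnp and 0.041 for Mbp), and DESeq2 called 0 of the 8. DESeq2 called 4 lower in Exc-DG, 3 in Exc-CA1-Galntl6, 2 each in Exc-ENT, Exc-CA3 and Exc-CA1-Fras1, 1 in Exc-Gpc6 and 0 in Exc-CA1-Camk2d and Inh-MGE. In Inh-MGE 3 of the 7 genes tested with edgeR had positive log2 fold changes, and 0 were called higher. Their mean levels there in B6 and D2 were 5.59 and 8.71 CPM for Mag, 2.38 and 4.75 for Ermn, and 5.04 and 7.12 for Mog.

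In astrocytes 6 of the 8 genes were lower in D2, beside 11.7% of all genes, and DESeq2 called 3. Mbp there was 167 and 142 CPM in B6 and 71.1 and 61.0 CPM in D2, and the fitted log2 fold change was -1.14 (SE 0.12, adjusted p = 5.4e-10, edgeR). Mog was 8.36 and 6.63 CPM in B6 and 3.09 and 1.86 CPM in D2, from 26, 21, 11 and 7 counts. The strains did not overlap in either gene.

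Outside oligodendrocytes, the precursors were the only type with a gene called higher in D2. Mbp was 142 and 110 CPM in the B6 precursors and 230 and 159 CPM in the D2 precursors, a log2 fold change of 0.63 (SE 0.13, adjusted p = 7.3e-05, edgeR), in a type where 8.9% of genes were called higher and 7.29% lower. Mobp was 24.5 and 23.1 CPM in B6 and 8.16 and 2.81 CPM in D2, from 34, 37, 10 and 4 counts, with a log2 fold change of -2.14 (SE 0.40). With DESeq2 the Mbp call was lost and that of Mobp was not.

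In microglia Mbp alone was called lower with edgeR, beside 5.11% of all genes, and DESeq2 called 0 of the 8. In vascular and leptomeningeal cells 0 of the 4 genes tested with edgeR was called, beside 4.83% of genes called lower. None of the 4 had an unadjusted p under 0.05, and DESeq2 called 0 of the 8. These columns held 439262 to 744129 and 225029 to 593447 counts, and a change of the size seen in neurons may not be detectable at this depth.

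**Figure D4:**
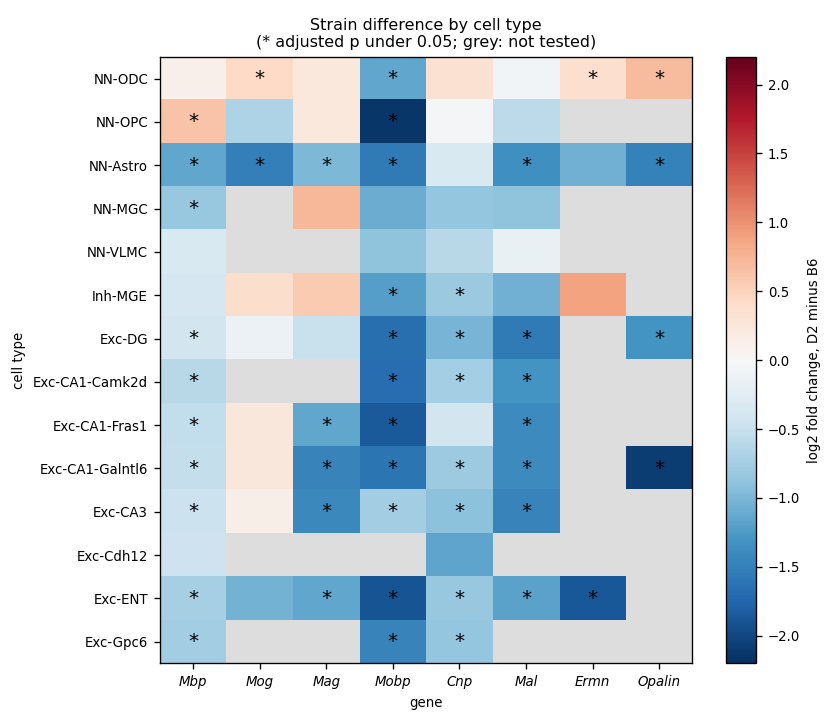
Log2 fold change of D2 against B6 for the 8 genes (columns) in 14 cell types (rows), blue where D2 is lower and red where it is higher, with a star at adjusted p under 0.05 and grey where a gene was not tested. The oligodendrocyte row is red for 6 genes and blue for Mobp and, faintly, Mal, the astrocyte row is blue, and the Mobp column is blue in all rows tested.

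The genes lie on 7 chromosomes in GRCm38. Ermn (58045113 to 58052864, -) and Mal (127633226 to 127656695, -) are on chromosome 2, Mag (30899176 to 30914873, -) on chromosome 7, Cnp (100574904 to 100591729, +) on chromosome 11 and Mog (37010743 to 37023398, -) on chromosome 17. Mbp (82475146 to 82585637, +) is on chromosome 18 and Opalin (41061710 to 41077113, -) on chromosome 19. Cnp overlaps Dnajc7 by 8912 bases and Ermn overlaps Galnt5 by 748 bases, in each case on the opposite strand, where reads can be told apart only if they were counted by strand. Mbp overlaps Rpl21-ps8 and Mog overlaps Gm22388, also on the opposite strand, which had 0 counts in B6 and 137 and 35 in D2 over all cell types used. Gm38642, which overlaps Mobp, had 116 counts in B6 and 375 in D2.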

How the data were processed

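Per the labels and the study's methods, the authors used Cell Ranger 6.0.2 for RNA and Cell Ranger ATAC 2.0.0 for accessibility, aligning to mm10 for B6 and to a copy carrying D2 variants for D2, clustered nuclei with Seurat 4.0.5, and removed doublets. The deposited values are raw counts per gene or peak, added up by cell type and library, plus the number of nuclei. Of 68 columns of the RNA table, 56 were used here. The 12 columns of 3 other neuronal types, Inh-CGE, Inh-Lamp5 and CR-CR, were not used and are not in the summed neurons. Of the ATAC columns 24 were not used. Methylation was not used here.

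Libraries carry the numbers 2 and 3 and the labels 1 and 2, so each was placed by strain alone. Nothing ties libraries to single animals, so p-values measure the spread between libraries. With 2 libraries against 2, the smallest p that an exact permutation test can give is 0.33. Statements that strains did not overlap are thus descriptions, and the share of all genes without overlap was not computed.

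Counts were tested with edgeR 4.0.16 (quasi-likelihood, TMM, filterByExpr) in R 4.3.3 over all genes, per cell type and for neurons summed, with Benjamini-Hochberg adjustment. The difference between oligodendrocytes and neurons was an interaction term with library as a factor. DESeq2 1.42.0, other scalings, filters, shared symbols, a block on library number and leaving out each library were the alternatives. The edgeR fits were tested on simulated counts. Same-numbered libraries did not deviate together (r = -0.042 in oligodendrocytes, -0.17 in neurons). The genes and lists were chosen with earlier results of these data known. Every one of the 8 genes is named. Of each list, the genes named are those with an adjusted p under 0.05 in oligodendrocytes, at most 6 by size of log2 fold change, and 1 further gene that the rule takes is not reported here. Depth per library is given with the results. Sequences are RefSeq's.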

Additional observations from a re-analysis of the deposited data

Results flagged for a closer look

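The strain difference was not the same in oligodendrocytes and in neurons for 6 genes, by the interaction term of edgeR. The difference, in log2 units and positive where D2 is relatively higher in oligodendrocytes, was 1.31 for Mal, 1.25 for Opalin, 1.21 for Cnp, 0.91 for Mag, 0.82 for Ermn and 0.63 for Mbp. Library totals, or symbols counted in both strains, left 5 of the 6 calls, without Ermn, and leaving out the second B6 library left 2, Cnp and Mal. For Opalin, Cnp, Mag, Ermn and Mbp the fitted value was positive in oligodendrocytes and negative in neurons, and for Mal it was near 0 in oligodendrocytes. Cnp, Mag and Mbp were not called in oligodendrocytes, and Ermn was not called in neurons. Opalin alone was called in both, and its call in neurons was lost with DESeq2 (adjusted p = 0.30). Oligodendrocytes were 9.69% and 12.4% of the nuclei in B6 and 6.68% and 8.08% in D2, and the part of this in the differences was not tested.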

How the results depend on the processing

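Under the alternatives run, the 24 values of the 8 genes in oligodendrocytes, in neurons and between them kept their direction and their side of the threshold in 228 of 263 refits. Sign changed in 9, none of which passed the threshold: Mal in oligodendrocytes ranged from -0.24 to 0.12 on leaving out a library. Mog in neurons was -0.0013 with a filter of 1 count, -0.0025 with DESeq2, -0.0017 with RLE, and -0.12 to 0.13 on leaving out a library. In Inh-MGE alone Mag was 0.58 and Ermn 0.88. Leaving out 1 library gave 1 to 4 genes higher in oligodendrocytes, 5 to 6 lower in neurons, and 2 to 6 called in the difference, with 1 found without the second D2 library and 2 without the second B6 library. Over all genes it gave 1348 to 2141 calls in oligodendrocytes and 389 to 804 in the difference. All genes called in oligodendrocytes were 1301 with DESeq2 and 1311 with at least 10 counts in every column. In neurons they were 6444 with 10 counts, 6978 for symbols with counts in both strains, and 3173 in Inh-MGE alone, where 2 of the 8 genes were lower. DESeq2 called 18 instead of 43 pairs lower in the other types, and the cause was not tested. Per nucleus the median percentage in neurons was 1.86. Library totals moved the median of all genes in oligodendrocytes from 0.02 to -0.08, and in the difference from -0.06 to -0.20. The replicate block on library number gave 3 genes higher and 1 lower in oligodendrocytes and 5 lower in neurons, with 2183 and 10984 calls over all genes, but the numbers do not pair the libraries. A crossed block, chosen after seeing the data, gave 2072 and 12730 calls.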
